A study of Mus musculus with 9 samples.

Results

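Mouse epiblast stem cells (EpiSCs) kept in CHIR99021 with XAV939 were set against mouse embryonic stem cells (ESCs) kept in 2i. The arrays were those whose titles name these cultures, 3 of each, which makes 6 of the 9 arrays in the series. The difference was described over all 19938 genes that have a probe set of their own. The ESCs were of strain 129 and their 2i medium is taken, from the common meaning of that name, to pair CHIR99021 (3 µM) with PD0325901 (1 µM). The EpiSCs were of strain CD1 and had CHIR99021 (3 µM) with XAV939 (2 µM). The remaining 3 arrays, used for a side comparison only, were of CD1 EpiSCs in FGF2 and activin at 10 ng/ml each. Doses are listed in the labels for all samples together, and every culture was in GMEM with 10% serum. The labels name no cell line or clone, and their tissue field calls all 9 samples embryonic stem cells, so cell type was read from the titles.

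CHIR99021 inhibits GSK3, the kinase that marks beta-catenin for destruction, and PD0325901 inhibits MEK, the kinase that activates ERK. XAV939 inhibits tankyrases, enzymes that mark the scaffold protein Axin for degradation, so Axin accumulates and holds beta-catenin in the cytoplasm. ESCs stand for the naive epiblast of the blastocyst. EpiSCs stand for the later, primed epiblast, an epithelium that has begun to respond to FGF and Nodal signals and is close to gastrulation. Both media here hold the GSK3 inhibitor. The partner compound, the cell type, the strain and the expression of sex-linked genes differ together. Effects of these cannot be told apart in any difference from ESCs. The EpiSC groups share their cell type and strain labels. They differ in medium and also in sex-linked genes, described below. Medium and what goes with those genes, such as sex or cell line, cannot be told apart between the EpiSC groups.

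Values are log2 expression. Array medians were 5.57 to 5.65, and precision is set by the small number of arrays. The labels leave unsaid whether each array had its own culture. The p-values therefore rest on differences among arrays alone, which may be technical. Naive markers were high in ESCs and low in CHIR/XAV EpiSCs, Tbx3 (-3.19), Zfp42 (-3.08) and Klf4 (-1.75) among them. The primed markers Otx2 (3.65), Fgf5 (3.61), Dnmt3b (2.00), Pou3f1 (1.11), Zic2 (1.02) and Sox3 (0.34) were higher. Of the markers both states share, Lin28a rose by 0.87, Pou5f1 rose by 0.26, Sox2 fell by 0.77 and Sall4 differed by -0.04 without passing the test. Sex-linked genes also differed between the groups: the mean of Xist, whose RNA silences 1 X chromosome, was 4.59 in ESCs and 9.12 in CHIR/XAV EpiSCs. The Y-linked genes Eif2s3y and Uty were the other way round, as given below.

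Among the 19938 genes, 46.7% were called different at a Benjamini-Hochberg adjusted p under 0.05 in limma. Higher in CHIR/XAV EpiSCs were 24.7% and lower 22.1%. All 3 CHIR/XAV arrays lay above all 3 ESC arrays for 27.1% of genes and below them for 26.1%. Called changes of 2-fold or more made up 5.03% of genes on the higher side (1002 genes) and 3.3% on the lower side (657 genes). At 4-fold or more there were 234 rises and 184 falls, and at 16-fold or more 21 rises and 20 falls. The median log2 change over all genes was -0.03, and these percentages are the background for the counts below. With the dimmest 40% of genes left out, 4509 of 11963 genes were called higher and 3409 lower. The background is thus higher for lists with few dim genes. Of the calls 52.7% were higher, which became 35.0% when each array was centred on its median and the median change moved to -0.13, so small changes are read relative to that shift. Of the 1659 called changes of 2-fold or more, 1226 lay outside every gene list and gene family described here. Fold changes against a group with a dim signal understate the change where that signal is background.

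**Figure D1:**
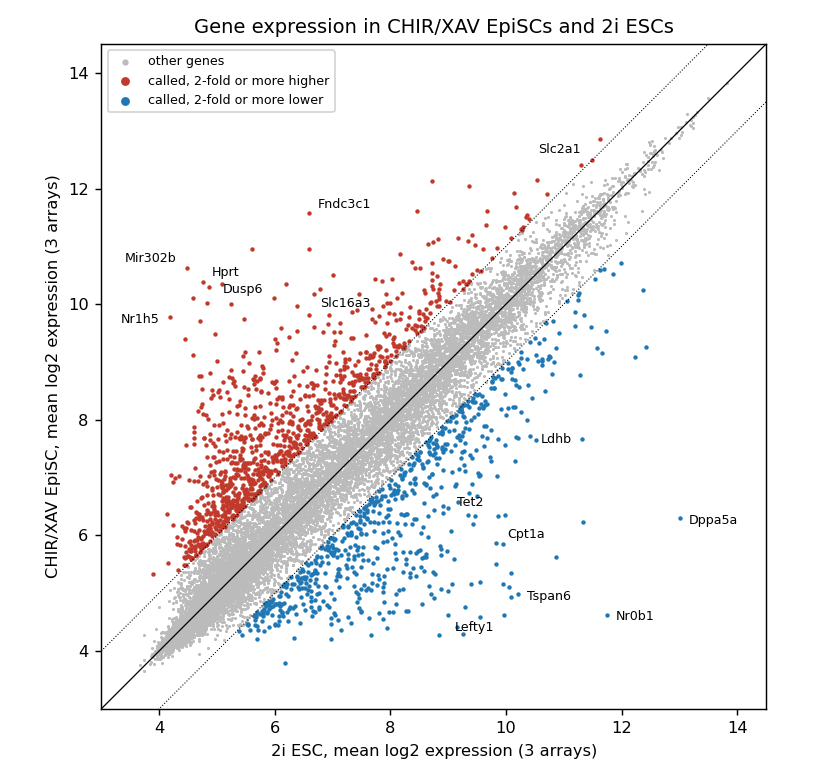
Mean log2 expression of 19938 genes in 2i ESCs (horizontal axis, 3 arrays) and CHIR/XAV EpiSCs (vertical axis, 3 arrays). Red points are the 1002 genes called at 2-fold or more higher and blue points the 657 called lower; the dotted lines mark a 2-fold difference, and labelled genes are described in the text.

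The microRNA genes of the Mir302 and Mir367 cluster were high in CHIR/XAV EpiSCs and low in ESCs. Their ESC means ran from 4.48 (Mir302b) to 5.61 (Mir302d), the last within the range of the array medians. MicroRNAs silence mRNAs that pair with their seed, bases 2 to 8, and this cluster is known from pluripotent cells of the primed state. The mature sequences below show what the rising genes encode, with the seed in capitals, from RefSeq on GRCm38.p6, plus strand. Mir302b lies at chr3:127545275-127545297, Mir302d at chr3:127545665-127545687, Mir367 at chr3:127545779-127545800, Mir134 at chr12:109734145-109734166 and Mir377 at chr12:109740553-109740574.
Mir302b, 3p arm: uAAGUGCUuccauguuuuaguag
Mir302d, 3p arm: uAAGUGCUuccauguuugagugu
Mir302c, 3p arm as RefSeq lists it: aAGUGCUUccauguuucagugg
Mir367, 3p arm: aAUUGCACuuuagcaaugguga
Mir377, 3p arm: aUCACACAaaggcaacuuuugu
Mir134, 5p arm: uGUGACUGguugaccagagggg

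Mir302b and Mir302d share the seed AAGUGCU, and the Mir302c entry carries the same 7 bases starting at its base 1. Mir302b was at 4.63, 4.34 and 4.48 on the ESC arrays and at 10.86, 10.85 and 10.19 on the CHIR/XAV arrays, a rise of 6.15 (SE 0.15, adjusted p = 2.67e-13). The groups lay far apart, and CHIR/XAV array 3 was the lowest of its group. Mir302c rose by 5.44, Mir302d by 5.34, Mir302a by 5.25 and Mir367 by 3.49. Other microRNAs that carry AAGUGCU, but from base 3 of their 5p arm, did not rise with them: Mir17 fell by 0.44 and Mir106b by 0.29, Mir20b rose by 0.41, and Mir93 (-0.17), Mir106a (0.23) and Mir20a (-0.00) did not pass the test. Among the 6 measured genes with the Mir367 seed AUUGCAC, Mir363 rose by 0.84 and Mir25 fell by 0.27, and Mir92b, Mir32 and Mir92-2 did not pass. All these were named for the shared bases. The array does not separate a microRNA's precursor from its mature form.

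Of 300 microRNA genes measured, 44 were higher and 54 lower (38 and 108 with median centring), with a median change of -0.05, so the rise was not one of microRNA genes in general. The 14 rises of 2-fold or more came from chromosome 3, with the 5 genes of the Mir302 and Mir367 cluster, and from chromosome 12, with 9 genes. On chromosome 12, 32 of the 47 measured microRNA genes rose and 3 fell. Mir382 was at 5.78, 5.45 and 5.24 in ESCs and at 8.36, 8.56 and 7.68 in CHIR/XAV EpiSCs, a rise of 2.71 (SE 0.19). Mir377 was at 7.04, 7.43 and 6.89 against 10.05, 9.91 and 9.06, a rise of 2.55 (SE 0.21). Both genes were apart between the groups, and again array 3 was the lowest of the CHIR/XAV arrays, as it was for 12 of the 14 genes. Without array 3 the rise of Mir302b was 6.37 and that of Mir382 2.97. Mir134 rose by 2.12 and Mir300 by 1.93. Only 5 microRNA genes fell by 2-fold or more, Mir680-2 (-1.67) and Mir297b (-1.46) the most.

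**Figure D2:**
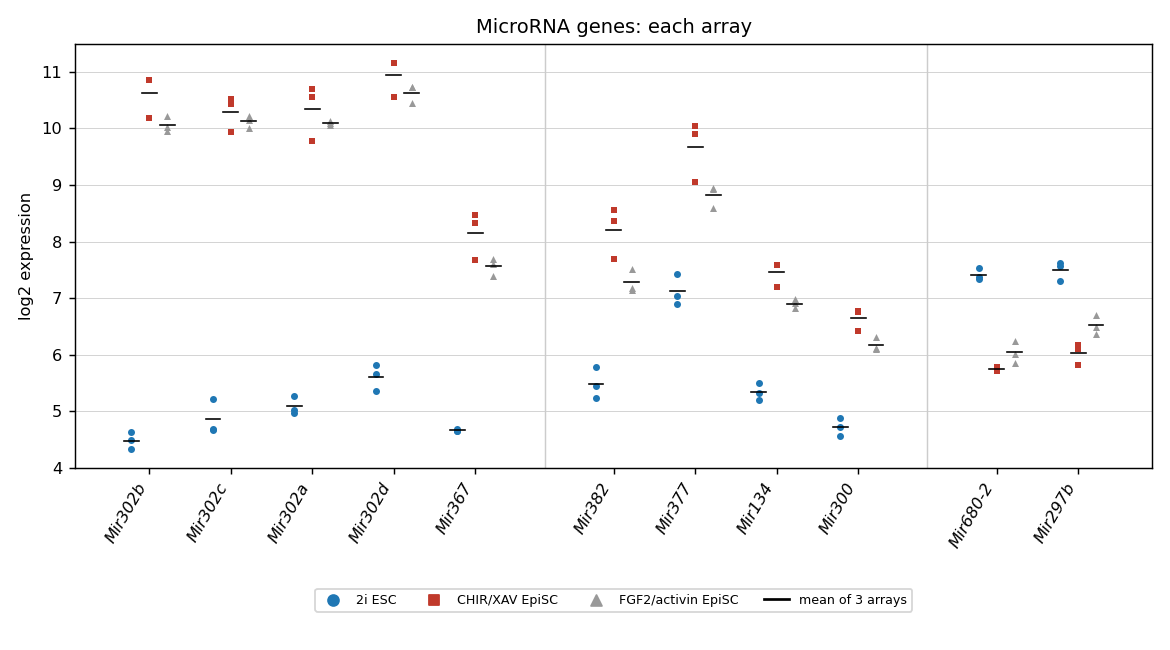
Log2 expression of microRNA genes on each array (points, 3 arrays a group) with the group mean (line), in the Mir302 and Mir367 cluster, on chromosome 12 and for the 2 largest named falls. The CHIR/XAV points of Mir302b reach 10.86 while the ESC points end at 4.63. CHIR/XAV array 3 lies below the other 2 for Mir302a, Mir302b, Mir302c, Mir302d, Mir382 and Mir377.

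The largest rises among protein-coding genes took in genes of matrix, transport and signalling as well as factors of the epiblast. Has2, the hyaluronan synthase, was at 4.92, 4.77 and 4.78 in ESCs and at 10.00, 10.02 and 10.06 in CHIR/XAV EpiSCs. The arrays of each group lay close together and the groups far apart, a rise of 5.20 (SE 0.07, adjusted p = 2.29e-15). Has2 lies on chromosome 15, where the median of 474 genes above the dimmest 40% was higher by 0.37, against 0.03 on the other autosomes and 0.19 on X. Slc39a8, a zinc and manganese importer, went from 5.29, 5.10 and 5.32 to 9.95, 9.98 and 10.06, a rise of 4.76 with no overlap. Fndc3c1 rose by 4.98 and the serine/threonine kinase gene Pim2 by 4.36, both on X, and the AMPA receptor partner gene Shisa6 by 4.95. Kynu, which encodes kynureninase of tryptophan breakdown, rose by 4.06, and the neurofilament gene Nefm by 4.03. Tmem54 rose by 4.02, the interferon-induced GTPase gene Irgm1 by 3.94 and the calcitonin receptor gene Calcr by 3.78.

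Hprt, which encodes a purine salvage enzyme that nearly all cells express, rose by 5.63, from 4.79, 4.72 and 4.75 to 10.36, 10.43 and 10.37. The ESC values lay below the median of their arrays. Of the 10 housekeeping genes measured 6 rose and none fell (5 and 1 with median centring), and 3 rose without chromosomes 15, X and Y, a choice made after seeing the data. Hprt is X-linked and the EpiSCs in FGF2 and activin, at 10.30 to 10.44, were like those in CHIR/XAV. The potassium channel gene Kcnma1 rose by 5.52 on its brighter probe set but changed by -0.42 on its other one, so its probe sets disagree.

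Genes known from naive ESCs were among the largest falls. Nr0b1, an X-linked orphan nuclear receptor gene, was at 11.70, 11.77 and 11.77 in ESCs and at 4.72, 4.64 and 4.52 in CHIR/XAV EpiSCs, a change of -7.12. Dppa5a went from 13.02, 12.89 and 13.13 to 6.11, 6.61 and 6.18, a change of -6.71, and neither gene's groups overlapped. Esrrb (-5.15) and Nr5a2 (-4.95), both nuclear receptor genes, Tfcp2l1 (-5.10), a transcription factor gene, and the F-box gene Fbxo15 (-4.33) fell too.

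Falls beyond these genes took in metabolism, cell contact and germline genes. Cpt1a, which encodes the enzyme that admits long-chain fatty acids to mitochondria, was at 9.87, 9.84 and 9.79 in ESCs and at 5.87, 5.86 and 5.85 in CHIR/XAV EpiSCs. Both groups were tight, and the fall was 3.97 (SE 0.08, adjusted p = 5.14e-14). The junction gene Jam2 went from 10.95, 10.89 and 10.77 to 5.59, 5.46 and 5.84, and so fell by 5.24. Tdrd12, a gene of the piRNA pathway that silences transposons in the germline, went from 10.15, 10.07 and 10.03 to 5.31, 5.34 and 5.41, and Morc1, another germline silencing gene, fell by 3.81. The axonemal dynein gene Dnah8 fell by 4.35, the zinc-finger gene Bnc2 by 4.23, the septin gene Septin1 by 3.95, and Phf11d changed by -3.73. Calcoco2, an autophagy receptor gene, fell by 4.97 on its brighter probe set and by less on its other one (-2.95). Triml2 (-5.34) and Triml1 (-3.84), which lie in the same gene family, fell together, and Trh, the thyrotropin-releasing hormone gene, fell by 4.11.

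Another set of genes stood apart in CHIR/XAV EpiSCs from both other groups. The second comparison uses the same CHIR/XAV arrays as the first. Against FGF2/activin EpiSCs 41.6% of all genes were called. Nr1h5, which encodes an FXR-like nuclear receptor, was at 4.17, 4.14 and 4.26 in ESCs, at 9.66, 9.79 and 9.88 in CHIR/XAV EpiSCs and at 4.12, 4.03 and 4.12 in FGF2/activin EpiSCs. It was high in the CHIR/XAV arrays alone of these 9, by 5.59 over ESCs and 5.69 over FGF2/activin EpiSCs. Slc4a10, a sodium bicarbonate transporter gene, had the same shape, with rises of 5.01 and 5.22. Rad21l, a meiotic cohesin gene, was higher by 3.48 and 3.86, Rnf17, a germline tudor gene, by 1.51 and 4.65, and Pcbd1, a pterin recycling gene, by 1.66 and 3.42. Xist was higher by 4.54 and 4.74.

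On the lower side, Tspan6, an X-linked tetraspanin gene, was at 10.29, 10.14 and 10.20 in ESCs and at 4.87, 4.95 and 5.12 in CHIR/XAV EpiSCs, against 10.46, 10.55 and 10.33 in FGF2/activin EpiSCs. The amino acid carrier gene Slc38a4, on chromosome 15, was lower by 4.78 than in ESCs and by 4.56 than in the other EpiSCs. The values were -4.78 and -4.56. The corresponding pair was -5.23 and -5.47 for Tspan6, -4.74 and -5.20 for Eif2s3y, and -4.56 and -5.08 for Uty. It was -1.76 and -3.68 for the X-linked kinase gene Map3k15, and -1.02 and -3.45 for the smooth-muscle actin gene Acta2. Xist, Eif2s3y and Uty are sex-linked and differ between EpiSC groups that carry the same strain label. Kdm5d, also Y-linked, was at 4.75 in ESCs and 4.73 in CHIR/XAV EpiSCs and did not pass the test. In all, 153 genes were called at 2-fold or more above both other groups and 80 below both.

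Genes that ERK signalling induces to restrain itself were higher in CHIR/XAV EpiSCs, whose medium holds no MEK inhibitor. Of 20 feedback inhibitors 14 rose and 1 fell (2 with median centring), with a median change of 0.82 against -0.03 over all genes. Dusp6, the phosphatase that inactivates ERK, was at 5.99 ± 0.01 (SD, n = 3) in ESCs and at 10.06, 10.09 and 10.17 in CHIR/XAV EpiSCs, a rise of 4.11 (SE 0.07, adjusted p = 5.57e-15). The groups did not overlap. The Sprouty genes, whose products dampen receptor tyrosine kinases, rose by 3.52 (Spry4), 3.09 (Spry3) and 2.02 (Spry2), and Dusp4 rose by 2.23 and Dusp5 by 1.94. Spred2 (-0.12), Dusp7 (0.03), Dusp2 (0.03) and Dusp14 (0.09) did not pass the test, so the rise did not take in the whole group.

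Of 25 transcription factors that ERK induces in many cells, 16 rose and 3 fell, with a median of 0.70. Jun, a subunit of AP-1, was at 5.75, 5.60 and 5.59 in ESCs and at 8.70, 8.50 and 8.65 in CHIR/XAV EpiSCs, a rise of 2.97 with no overlap. The ETS factor genes Etv4 and Etv1 rose by 2.42 and 2.03, and their relative Etv5, chosen here after its values were seen, fell by 0.55 on its brighter probe set but differed by 2.26 on its other one, so its probe sets disagree. Myc, on chromosome 15, rose by 2.74, Egr1 by 1.48 and the stress-responsive Atf3 by 1.43. The immediate early genes Fos (0.16), Fosb (-0.01), Egr2 (-0.01) and Egr3 (0.16) did not pass. Among 24 FGF ligands and receptors 7 rose and 6 fell, a balance that turned to 6 and 9 after median centring. Fgf5 stood out from that list, and its receptor genes split, with Fgfr2 lower by 2.39 (-2.39) and Fgfr1 at 0.14 without passing.

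**Figure D3:**
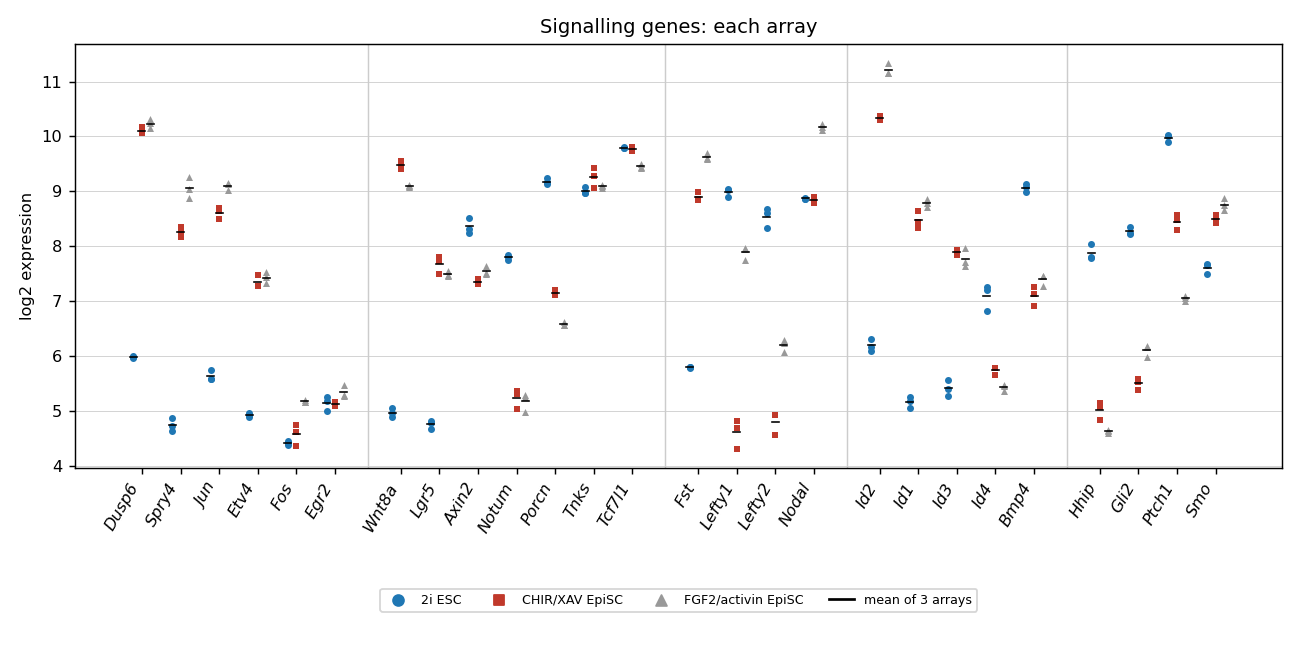
Log2 expression of signalling genes on each array (points, 3 arrays a group) with the group mean (line), in blocks for ERK, Wnt, Nodal, BMP and Hedgehog genes. Dusp6 lies near 6 in ESCs and above 10 in both EpiSC groups, Lefty1 is lowest in CHIR/XAV EpiSCs, and the points of Tcf7l1 and Nodal in ESCs and CHIR/XAV EpiSCs nearly coincide.

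Wnt pathway genes moved in both directions, in cells whose 2 media both hold the GSK3 inhibitor. Of 24 targets of beta-catenin 8 rose and 8 fell. With median centring these were 6 and 11, and with quantile normalization 7 and 10. Axin2, the usual feedback target and itself an Axin, was at 8.33, 8.25 and 8.53 in ESCs and at 7.32, 7.36 and 7.40 in CHIR/XAV EpiSCs. It fell by 1.00 (SE 0.08, adjusted p = 9.68e-08) with no overlap, and differed from FGF2/activin EpiSCs by -0.20 without passing the test. Notum, a secreted Wnt deacylase, went from 7.84, 7.80 and 7.76 to 5.05, 5.37 and 5.31, a change of -2.56. Bmp4 (-1.96), also counted as a target, fell. Lgr5, the R-spondin receptor gene, went the opposite way, from 4.83, 4.68 and 4.80 to 7.50, 7.74 and 7.82, a rise of 2.92. Ccnd2 rose by 1.26, while Rnf43 (-0.00), Apcdd1 (0.05) and Ccnd1 (0.05) did not pass.

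The proteins that XAV939 and CHIR99021 act on changed little in mRNA. Tnks rose by 0.25 and Tnks2 by 0.26, and both calls were lost after median centring (changes of 0.15 and 0.15). The call of Tnks was also lost without ESC array 1 or 3 or CHIR/XAV array 2 or 3. Gsk3a (-0.04), Gsk3b (-0.09), Axin1 (0.10), Apc (-0.11) and Ctnnb1 (-0.02), the gene of beta-catenin, did not pass. Over the 18 genes of the destruction complex with the tankyrases 4 rose and 3 fell. Median centring gave 2 and 6, and quantile normalization 4 and 5. Among the nuclear partners of beta-catenin, the activator Lef1 rose by 1.02 and Tcf7l2 by 1.17. The repressor Tcf7l1, known to restrain naive genes, was level at -0.02 (SE 0.06). Tle5, a short member of the Groucho corepressor family, fell by 1.81, and Tle6 (-1.21) and Tle1 (-0.77) fell as well.

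Genes of Wnt secretion and reception held some large single changes. Wnt8a, a ligand of the primed epiblast, rose by 4.51, the R-spondin gene Rspo1 by 1.40 and the Wnt carrier gene Wls by 1.36. Porcn, whose product acylates Wnts before secretion, went from 9.13, 9.16 and 9.24 to 7.21, 7.12 and 7.12 and so fell by 2.03. It lies on X. Of 37 ligands and secreted regulators 9 rose and 6 fell, which became 8 and 17 after median centring. The first counts were 24.3% and 16.2%, against 24.7% and 22.1% of all genes, so the list did not rise as a group. Of the 37, 22 were in the dimmest 40% of genes. Of 26 receptor genes 10 rose (38.5%), among them Fzd6 (1.14, chromosome 15), Fzd2 (1.05), Fzd3 (1.00) and Lrp5 (0.99). Another 6 fell (23.1%), Fzd10 (-0.82) the most. Only 3 of the 26 were in the dimmest 40%, and the background is higher for such lists.

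In the Nodal and activin pathway both Lefty genes fell and Fst rose, while Nodal itself and the antagonist gene Cer1 (-0.09) did not pass the test. Lefty1, a Nodal inhibitor that Nodal itself induces, was at 9.05, 8.89 and 9.03 in ESCs and at 4.70, 4.83 and 4.32 in CHIR/XAV EpiSCs. Lefty2 went from 8.68, 8.33 and 8.61 to 4.93, 4.94 and 4.58, and the changes were -4.37 and -3.73 with no overlap. Nodal was at 8.87, 8.89 and 8.86 against 8.80, 8.81 and 8.90, a difference of -0.04 (SE 0.06, adjusted p = 0.68). Pcsk6 (-2.26), a convertase that cleaves Nodal, and the related ligand gene Gdf3 (-2.05) fell. Fst, the activin-binding follistatin, rose by 3.10, from 5.78, 5.81 and 5.81 to 8.99, 8.87 and 8.85, and Foxh1, the DNA-binding partner of Smad2, rose by 1.65. Foxh1 lies on chromosome 15. Of the 26 genes 7 rose and 10 fell.

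The Id genes, which BMP signalling induces and which block basic helix-loop-helix factors, split. Id2 was at 6.18, 6.10 and 6.32 in ESCs and at 10.31, 10.37 and 10.36 in CHIR/XAV EpiSCs, a rise of 4.14, and Id1 and Id3 rose by 3.30 and 2.48. Id4 fell by 1.35. The ligand gene Bmp4 went from 9.07, 8.99 and 9.13 to 7.14, 7.25 and 6.92, and so ran against the 3 rising Id genes. The receptors Bmpr2 (-0.07) and Bmpr1b (0.18) did not pass the test. Over the 29 genes of the pathway 11 rose and 5 fell.

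Hedgehog genes changed in both directions. Ptch1, the receptor that the pathway induces, went from 10.02, 10.02 and 9.90 to 8.30, 8.48 and 8.57, a change of -1.53. The membrane inhibitor gene Hhip changed by -2.85 and the transcription factor gene Gli2 by -2.77, both with no overlap. Smo, the signal transducer, rose by 0.89, Gli3 by 0.77 and the co-receptor gene Boc by 0.61, and the ligand genes Shh (0.05), Ihh (0.01) and Dhh (0.19) did not pass. Over the list 4 of 15 rose and 4 fell. Of 24 Notch genes 11 rose, led by Maml3 (1.74), Dlk1 (1.47), Dll3 (1.25) and Mfng (1.15, chromosome 15), and 5 fell, led by Notch4 (-1.22) and the target Hes1 (-1.21). After median centring or quantile normalization 8 fell.

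Receptors of leukaemia inhibitory factor, which sustains naive ESCs through STAT3, were lower. Il6st, the shared gp130 subunit, fell by 2.13 and Lifr by 1.57, against the drift of chromosome 15, on which Lifr lies. Stat3 (-0.11), Jak1 (0.09), Jak2 (-0.15) and the feedback gene Socs3 (-0.11) did not pass the test. The 19 genes of the pathway had 4 rises and 6 falls, or 5 and 4 when the dimmest 40% of genes were left out. Retinoic acid genes had 7 rises and 7 falls among 19, or 6 and 9 after median centring, with the receptor gene Rxrg (2.54) and the retinol dehydrogenase gene Rdh10 (1.90) up and the responsive gene Stra8 (-1.56) down.

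Epithelial and cytoskeletal genes were higher in CHIR/XAV EpiSCs. Of 32 actin and contractile genes 24 rose and 2 fell (4 with median centring), with a median of 0.83. Cnn1, a calponin of smooth muscle, was at 5.36, 5.55 and 5.45 in ESCs and at 8.75, 8.86 and 8.94 in CHIR/XAV EpiSCs, a rise of 3.40 with no overlap. Ccn1 and Ccn2, matrix genes induced by YAP and serum response factor, rose by 3.70 and 1.99, Zyx by 1.92, Tpm2 by 1.44 and Cald1 by 1.43. Ccn2 was lower in FGF2/activin EpiSCs, at 6.10, 6.22 and 5.84, than in either other group. Actn1 (-0.09), Actn4 (0.09) and Acta1 (-0.12) did not pass.

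Of 30 tight junction genes 17 rose and 5 fell, with a median of 0.51. Cldn6 rose by 2.72, Cldn7 by 2.44, Cldn1 by 1.65 and the occludin gene Ocln by 1.54, while Jam2 and Ildr1 (-1.83) fell and F11r (0.20) did not pass. Of 21 keratin and desmosome genes 10 rose and 2 fell (5 fell after median centring, and 1 without ESC array 2 or 3 or CHIR/XAV array 1 or 2). Krt19 went from 5.02, 4.90 and 5.33 to 8.10 ± 0.12 (SD, n = 3), a rise of 3.02 with no overlap, and was higher again in FGF2/activin EpiSCs, at 10.29, 10.37 and 10.25. Krt8 (1.63) and Krt18 (1.23) rose too, and both lie on chromosome 15. Among epithelial regulators 11 of 19 rose and 4 fell, with the protease gene Prss8 (3.02), the splicing factor gene Esrp1 (2.39) and Epcam (2.35) up and the ETS factor gene Elf3 (-1.88) down. The sialomucin gene Podxl, a surface antigen, rose by 3.48, and the receptor kinase gene Kit fell by 2.88.

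Mesenchymal and matrix genes had no shared direction. The fibronectin gene Fn1 fell by 2.19 and the repressor gene Zeb1 by 1.61, while Mmp2 (3.08), a gelatinase gene, and Zeb2 (1.03) rose. Among 45 collagens, laminins and integrins 15 rose and 11 fell, and median centring turned this to 12 and 16. Itga3 rose by 2.98, Thbs1 by 2.70 and Itgb5 by 1.62, and Itga9 (-1.84), Lama1 (-1.77) and Nid1 (-1.67) fell. Guidance genes, known from axons and also used by epithelia, changed strongly: 25 of 57 rose and 14 fell. Sema6a rose by 4.28 and Sema6d by 3.50. Epha1, an Eph receptor, went from 5.02, 5.09 and 5.19 to 8.65, 8.64 and 8.68, a rise of 3.55, and its ligand family member Efnb2 rose by 2.65. The netrin receptor gene Unc5b rose by 2.72 and the netrin gene Ntn1 changed by -3.55, from 8.72, 8.71 and 8.59 to 5.20, 5.21 and 4.95.

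**Figure D4:**
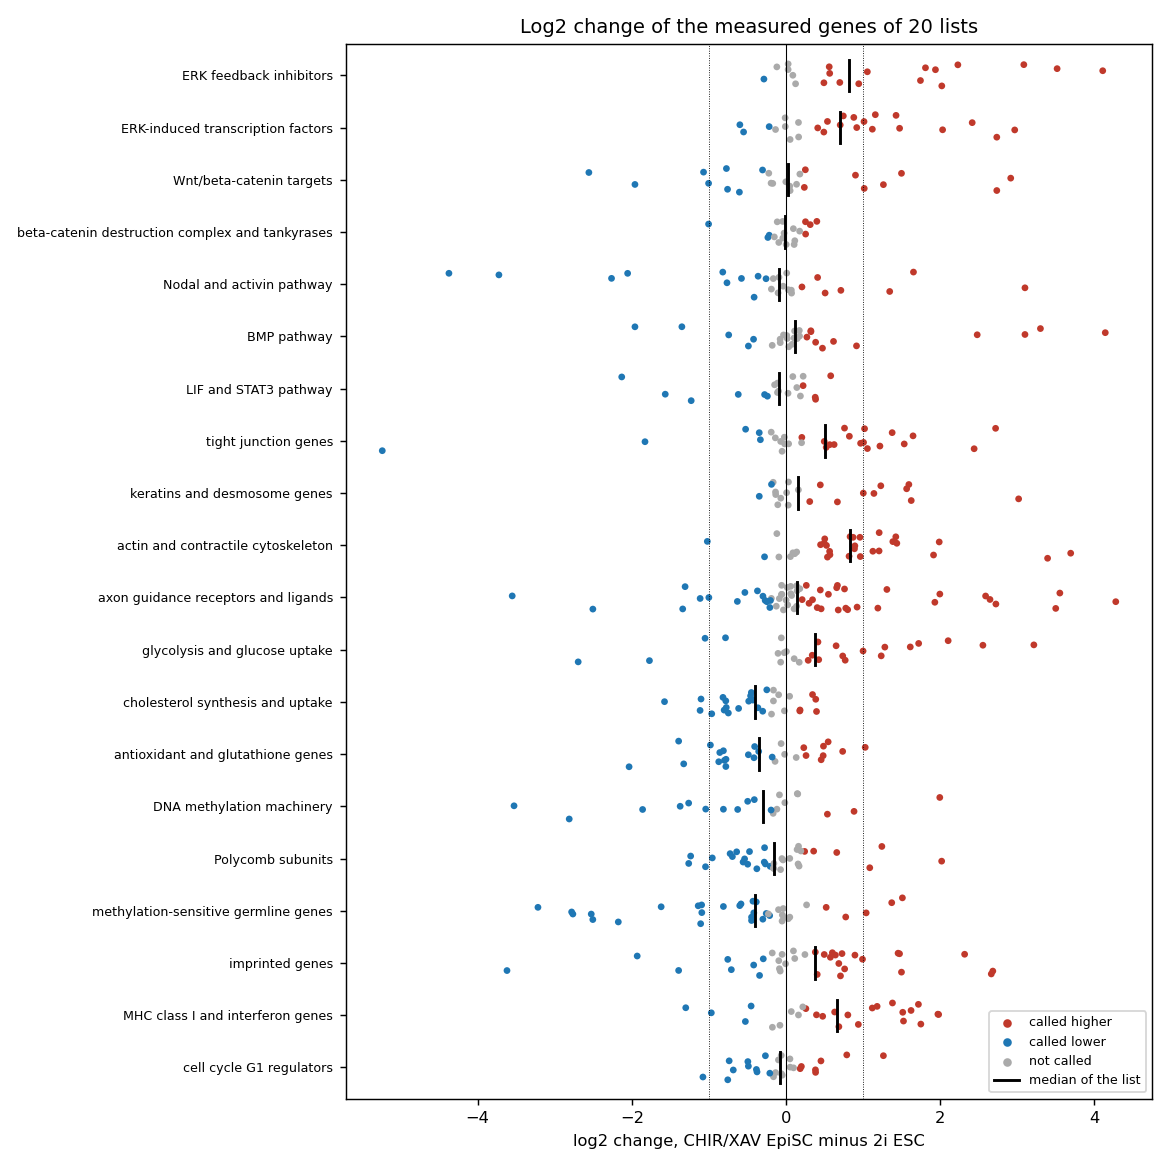
Log2 change (CHIR/XAV EpiSC minus 2i ESC) of each measured gene in 20 lists, coloured by whether it was called higher, lower or neither, with the median of each list as a black bar. The median is 0.83 for actin genes and 0.82 for ERK feedback inhibitors, and -0.40 for germline and for cholesterol genes, and most lists hold changes of both signs.

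Genes of glucose use changed isoform by isoform, with more rises than falls. Of 26 genes 15 rose and 4 fell, with a median of 0.38. Slc16a3, the carrier that exports lactate, was at 6.66, 6.57 and 6.57 in ESCs and at 9.93, 9.76 and 9.76 in CHIR/XAV EpiSCs, a rise of 3.22, while Slc16a1, the more widely expressed carrier of lactate and pyruvate, was level at 0.01. Ldhb, whose subunit favours lactate oxidation, went from 10.42, 10.47 and 10.37 to 7.79, 7.64 and 7.75, a change of -2.70 (SE 0.07, adjusted p = 4.17e-13). Ldha, whose subunit favours lactate formation, went from 10.45, 10.63 and 10.52 to 12.14, 12.14 and 12.16, a rise of 1.61. The phosphofructokinase genes Pfkl and Pfkm rose by 2.56 and 2.11, Pfkm on chromosome 15, and Pfkp fell by 1.05. The glucose carrier genes Slc2a1 (1.00) and Slc2a3 (-0.78) also went opposite ways. Ldha, Pfkp, Slc2a1 and Slc2a3 were named after their values were seen, as the partners of genes already chosen. Pdk4, whose kinase shuts pyruvate out of the citric acid cycle, fell by 1.77, and Hk1 (-0.06), Pdk1 (0.11) and Pdk3 (0.17) did not pass.

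**Figure D5:**
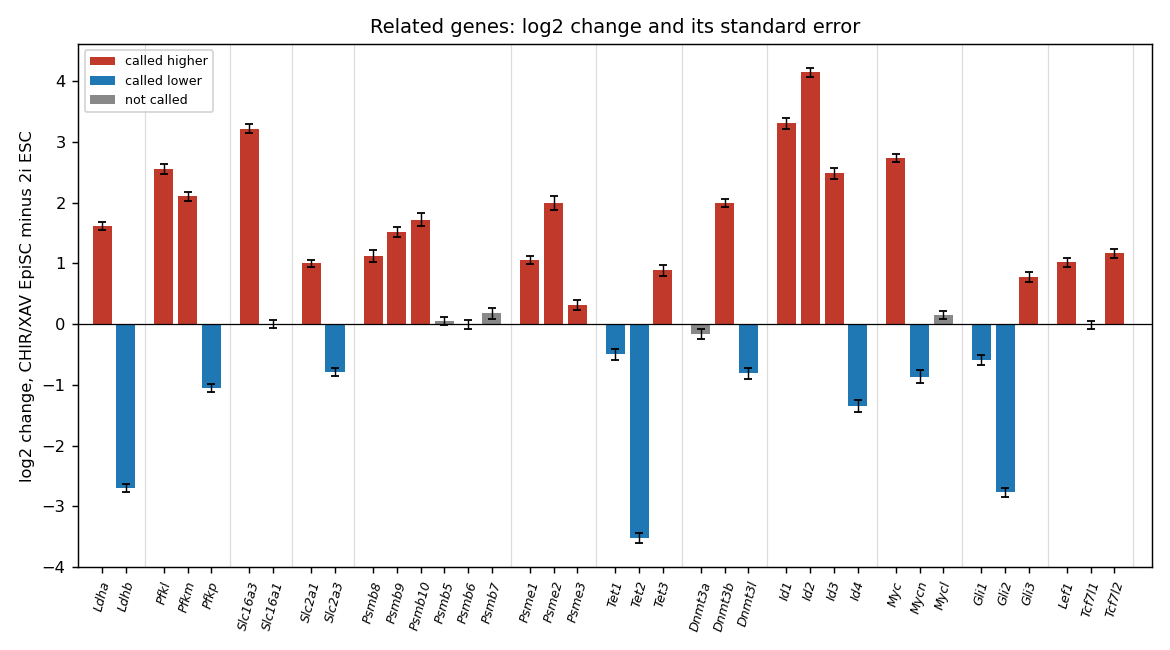
Log2 change (CHIR/XAV EpiSC minus 2i ESC, bars) with its standard error for sets of related genes, coloured by call. Ldha (1.61) and Ldhb (-2.70) point opposite ways, Psmb8 to Psmb10 rise while Psmb5 to Psmb7 lie near 0, and Tet2 falls by far more than Tet1.

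Cholesterol genes were lower: of 28 measured 17 fell and 5 rose (3 after either rescaling, in the fit of the 6 arrays alone, or without ESC array 2, CHIR/XAV array 2 or CHIR/XAV array 3), with a median of -0.40. Insig1, a sterol sensor that SREBP2 induces, fell by 1.58, and the cholesterol exporter gene Abca1 (-1.11), the demethylase gene Msmo1 (-1.10) and Stard4 (-0.96) fell with it. Antioxidant and glutathione genes had 15 falls and 8 rises among 27, with a median of -0.35, which was -0.22 without ESC array 3. Gsta3 fell by 2.04, Gstm1 by 1.39 and the mitochondrial superoxide dismutase gene Sod2 by 1.33, and Gpx3 rose by 1.03. The cystine carrier gene Slc7a11, counted with the targets of the stress factor ATF4, rose by 1.97, whereas Nupr1 (-2.64) and Ddit3 (-1.89) of the same list fell. That list had 6 rises and 7 falls among 20. The glycine cleavage genes Gldc (-1.41) and Amt (-1.07) fell, and the 20 genes of serine and folate metabolism had 8 falls and 4 rises. Subunits of the respiratory chain changed little, with 5 rises and 9 falls among 28 and none reaching 2-fold, from -0.92 (Cox6b2) to 0.93 (Sdhd). The rises were 2 after median centring and 3 without ESC array 3 or CHIR/XAV array 1. In the lysosome and autophagy list, with 5 rises and 8 falls among 28, the autophagy kinase gene Ulk1 fell by 2.19 and the protease gene Ctsc rose by 2.23. After median centring that list had 3 rises and 16 falls, and without ESC array 1 or CHIR/XAV array 2 it had 3 rises.

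Chromatin genes differed member by member. Tet2, which encodes an oxidase of 5-methylcytosine, was at 9.94, 9.85 and 9.78 in ESCs and at 6.22, 6.28 and 6.48 in CHIR/XAV EpiSCs, a change of -3.53 (SE 0.08, adjusted p = 2.00e-13). Its relatives moved less, Tet1 by -0.50 and Tet3 by 0.88, both named for the contrast after their values were seen. Of the de novo methyltransferase genes Dnmt3b rose by 2.00 and Dnmt3a (-0.17) did not pass. Zfp57, which protects methylation at imprints, fell by 1.86, Idh2, which makes the Tet cofactor, by 1.37, and Uhrf2 by 1.26. In all, 11 of 20 genes of the methylation machinery fell and 3 rose, or 5 without CHIR/XAV array 1. Of 34 Polycomb genes 16 fell, led by Mtf2 (-1.26), Bmi1 (-1.24) and Epop (-1.04), and 6 rose, led by Scml2 (2.02, on X) and Kdm2b (1.24), of which 3 remain without chromosomes 15, X and Y. The catalytic subunit gene Ezh2 was level at -0.04. The architectural gene Hmga2, a let-7 target, rose by 2.30, Satb1 by 1.88 and the remodeller gene Smarca2 by 1.70, and Jade1 (-2.41) and the demethylase gene Kdm3a (-1.67) fell.

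Germline genes that promoter methylation keeps silent in somatic cells were mostly lower. Of 36 measured 22 fell and 5 rose, with a median of -0.40, and 19 of the 36 were in the dimmest 40% of genes, without which 12 fell and 3 rose. Hormad1, a meiotic chromosome axis gene, was at 8.89, 8.79 and 8.95 in ESCs and at 5.80, 5.77 and 5.40 in CHIR/XAV EpiSCs, a change of -3.22 with no overlap. The RNA helicase gene Ddx4, a germ cell marker, went from 7.74, 7.55 and 7.54 to 5.09, 5.21 and 4.94, a change of -2.53. Pnldc1 (-2.78), Meioc (-2.77), Dazl (-2.51) and Syce1 (-2.18) fell too. Hormad2 (-0.23), Piwil2 (-0.10) and Brdt (-0.03) did not pass. Rnf17, described above, rose.

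The E-box CACGTG, the same on both strands, was searched in the 250 bases before the start of each gene, since PRC1.6 and MYC-like factors are known to bind it at germline promoters. It was present in 15 of the 31 germline genes with a promoter entry (48.4%), against 8.11% of 15614 genes of the array. Of the 15 genes with it 11 fell and 1 rose (median -0.45), and of the 16 without it 8 fell and 3 rose (median -0.26). The 3 promoters below are those of falling genes, in RefSeq's GRCm38.p6, read from just upstream of the motif to the start site, with the E-box in capitals. Hormad1 is at chr3:95559605-95559676 on the plus strand, Ddx4 at chr13:112652311-112652370 on the minus strand and Stk31 (-1.09), a germline tudor kinase gene shown for its E-box and named after its value was seen, at chr6:49395469-49395538 on the plus strand.
Hormad1: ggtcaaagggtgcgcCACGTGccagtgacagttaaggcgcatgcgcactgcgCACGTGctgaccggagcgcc
Ddx4: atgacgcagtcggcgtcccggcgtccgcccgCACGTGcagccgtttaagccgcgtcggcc
Stk31: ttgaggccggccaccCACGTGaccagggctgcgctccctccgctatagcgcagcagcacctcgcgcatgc

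Hormad1 carries 2 E-boxes in this window and Ddx4 and Stk31 carry 1 each. Binding was not measured, so a match describes the letters only.

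Of 35 imprinted genes, which are expressed from 1 parental copy, 18 rose and 8 fell, with a median of 0.38. The noncoding RNA genes Meg3 and Rian, on chromosome 12 with the rising microRNA genes, went up together. Meg3 was at 6.96, 6.83 and 6.70 in ESCs and at 9.41, 9.58 and 9.56 in CHIR/XAV EpiSCs, a rise of 2.68. Rian went from 4.93, 4.97 and 4.92 to 7.90, 7.72 and 7.19, a rise of 2.67, with array 3 again the lowest of the CHIR/XAV arrays. The zinc-finger gene Plagl1 rose by 2.32. Sfmbt2, a Polycomb-like gene of the placenta, fell by 3.62, from 10.02, 9.97 and 9.93 to 6.26, 6.41 and 6.39, and was at 9.03, 9.13 and 8.98 in FGF2/activin EpiSCs. Igf2 (-0.07), Grb10 (-0.09) and Nnat (-0.09) did not pass.

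Antigen presentation genes were higher. Of 26 MHC class I and interferon genes 17 rose and 4 fell, with a median of 0.66. B2m, the light chain of every class I molecule, was at 9.09, 9.10 and 9.34 in ESCs and at 11.16, 11.18 and 11.10 in CHIR/XAV EpiSCs, a rise of 1.97 (SE 0.08, adjusted p = 3.61e-11). The peptide transporter genes Tap2 and Tap1 rose by 1.75 and 1.53. The immunoproteasome, which cuts peptides for class I, is made by exchange of 3 catalytic subunits. Its subunit genes Psmb10 (1.72), Psmb9 (1.52) and Psmb8 (1.12) rose, while the standard subunits that they replace, Psmb7 (0.18), Psmb6 (-0.01) and Psmb5 (0.05), did not pass the test. The activator gene Psme2 rose by 1.99 and its partner Psme1 by 1.05. Psmb8 and Psme1 were named with them after their values were seen. Interferon-induced genes were mixed: Bst2 rose by 1.62, Irf1 rose by 1.98 on 1 probe set and differed by 0.19 on its other one, and Ifit1 (0.16), Oas1a (0.22) and Irf7 (0.07) did not pass.

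The interferon response motif, which is GAAA, any 2 bases and GAAA again, read on both strands in the same 250 bases, was in 7 of 22 genes of this list (31.8%), against 3.40% of all genes. Of the 7 genes 3 rose and 2 fell (median 0.22), and of the 15 without it 12 rose and 2 fell (median 0.94). The rising genes B2m and Bst2 are shown with the motif in capitals, B2m at chr2:122147533-122147686 on the plus strand and Bst2, with 2 overlapping copies, at chr8:71537473-71537617 on the minus strand.
B2m: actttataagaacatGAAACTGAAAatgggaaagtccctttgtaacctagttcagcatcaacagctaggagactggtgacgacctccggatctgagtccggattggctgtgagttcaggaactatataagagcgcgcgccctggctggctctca
Bst2: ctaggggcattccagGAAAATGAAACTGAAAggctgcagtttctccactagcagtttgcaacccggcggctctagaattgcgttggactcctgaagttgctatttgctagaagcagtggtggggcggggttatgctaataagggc

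The letters thus occur in a larger share of the list than of all genes, and genes of the list without them rose as well. For cholesterol genes the sterol response letters CACCCCAC were found in 1 of 21 promoters (4.76%), against 3.15% of all genes.

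Cell cycle and survival genes changed modestly. Of 26 G1 regulators 7 rose and 10 fell, with only Ccnd2 (1.26) and the pocket protein gene Rbl2 (-1.08) at 2-fold, and Cdk4 (0.05) and Ccnd1 level. Within the Myc family Myc rose as Mycn fell by 0.87, and Mycl (0.15) did not pass. The repressor partners Mnt and Mxi1 fell by 0.53 and 0.50. Of 22 targets of p53 10 rose, led by Plk2 (1.94), Perp (1.57) and Btg2 (1.29), and 6 fell, led by Tigar (-0.74). Of 16 BCL2 family genes 4 rose and 4 fell, with changes from -1.46 to 1.42, so the family had no shared direction. Among the rises were the survival gene Bcl2 (1.42) and the death gene Bcl2l11 (1.25), members of opposite function. In the let-7 axis, which Lin28 proteins block, Lin28b rose by 0.85 and Igf2bp3 by 0.63, and Ago1 fell by 0.71.

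Markers of other cell types were checked for the makeup of the cultures, and fewer cells of a type cannot be told apart from less RNA per cell. Summed on the linear scale, fibroblast and feeder markers ranged from 1163 to 1208 on ESC arrays and from 856 to 878 on CHIR/XAV arrays, and 11 of 17 were in the dimmest 40% of genes. On that list 3 rose and 3 fell, with 1 rise after median centring. The collagen genes Col1a1 (0.00) and Col1a2 (0.11), Postn (0.08) and Lum (-0.03) did not pass the test, while Thy1 rose by 1.77 and Fbln1 fell by 1.54. Streak and mesoderm markers summed to 862 to 897 against 1096 to 1186, with 6 of 23 up and 6 down. Tbx20, a cardiac T-box gene, rose by 2.72 and Eomes by 1.03, and Mixl1 (0.02), Mesp1 (-0.05) and Gsc (-0.09) did not pass. Extraembryonic endoderm markers summed to 1798 to 1833 against 2898 to 3008, with 4 of 19 up (7 without CHIR/XAV array 3) and 4 down (2 without the dimmest genes). The largest parts of that were the matrix genes Lamb1 (1.20) and Sparc (1.04), and Sox7 (-0.10), Afp (-0.02) and Gata6 (0.20) did not pass. Dab2 of this list rose by 1.51 on 1 probe set and differed by -0.07 on its other one.

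Definitive endoderm markers summed to 1422 to 1482 against 775 to 822, with 2 of 13 up (4 without CHIR/XAV array 3) and 2 down. Trh alone fell by more on the linear scale than the whole sum, so the other markers of this list together were higher. Sox17 (-0.22), Foxa2 (0.20) and Cer1 (-0.09) did not pass. Neural markers summed to 1295 to 1356 against 1459 to 1582, with 4 of 21 up and 7 down (12 after median centring). There Fabp7 rose by 3.26 and Nes by 2.38, Pax6 fell by 1.75 and En2 by 1.49, and Sox1 (0.11) did not pass. Trophoblast markers summed to 1318 to 1368 against 2167 to 2200, with 6 of 15 up and 5 down, or 5 and 7 after median centring. Id2, which is not restricted to trophoblast, had the largest rise, larger on the linear scale than that of the whole sum. The other trophoblast markers together were thus lower. Tfap2c (-2.98) and Cdx2 (-1.07) fell and Elf5 (-0.20) did not pass. Blood and endothelial markers summed to 503 to 547 against 630 to 686, with 4 of 13 up, none down (1 with median centring or without ESC array 1) and 10 in the dimmest 40%. Germ cell markers summed to 4452 to 4589 against 4189 to 4459, where 9 of 12 fell, Dppa3 (-3.06) the most, and Ifitm3, which is not restricted to germ cells and was named after its value was seen, rose by 1.18. The part of other cell types in the results above was not tested.

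Set beside the FGF2/activin EpiSCs, some named genes that separate CHIR/XAV EpiSCs from ESCs did not pass the test between the EpiSC cultures. Of all genes, 41.6% were called between those cultures. The difference between those cultures was -0.13 (SE 0.07) for Dusp6, -0.04 (SE 0.07) for Ldha, 0.03 (SE 0.08) for Pfkl, -0.02 (SE 0.07) for Slc16a3 and 0.19 (SE 0.08) for Lgr5, none of which passed the test. Other genes differed between the EpiSC cultures as well, some by no less than they did from ESCs. Thbs1, a matrix thrombospondin, was 2.70 above ESCs and -2.70 from FGF2/activin EpiSCs, which had the highest level. Nodal was level with ESCs but lower by 1.33 than in FGF2/activin EpiSCs (-1.33), where it was at 10.16, 10.23 and 10.12. Lefty1 was at 7.98, 7.96 and 7.75 there, between ESCs and CHIR/XAV EpiSCs, and differed by -3.28. Slc7a11 was higher than in FGF2/activin EpiSCs by 3.22 and Ctsc by 3.00, and Ptch1 by 1.39, although Ptch1 was lower than in ESCs. Both sets of differences use the same CHIR/XAV arrays.

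Large gene families put single members in context. Of 364 solute carrier genes 103 rose and 85 fell (89 and 140 with median centring). Besides the carriers described above, the oligopeptide carrier gene Slc15a1 fell by 3.25. Of 92 potassium channel genes 21 rose and 10 fell (18 and 29 with median centring), with Kcnj3 (2.88) up and Kcnk5 (-2.39) down. Of 347 genes with Zfp symbols 83 rose and 103 fell, and Zfp979 (-3.66), Zfp459 (-3.39) and Zfp980 (-3.15) fell most, while Zfp608 rose by 3.35. Proteasome genes (18 of 50 higher, 3 lower, or 15 and 7 with median centring) included the testis subunit gene Psma8, which fell by 1.82. Of 57 ribosomal protein genes 7 rose and 11 fell (4 rose without ESC array 2 or CHIR/XAV array 1, and 4 rose and 20 fell with median centring), and the largest falls were those of Rpl26 (-2.07) and of the retrogene-type copies Rpl10l (-1.62) and Rps4l (-1.40), whose signals near-identical copies could share. Of the 8 measured Rhox homeobox genes, an X-linked reproductive cluster, 4 fell, led by Rhox9 (-2.60) and Rhox6 (-1.76), and none rose. Of 34 protocadherin genes 9 rose, led by Pcdh1 (2.21), and 1 fell. There were 5 rises without ESC array 2, 2 falls without ESC array 3, and 5 rises and 4 falls with median centring.

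Olfactory receptor genes, which these cells are not known to use, gauge how dim probe sets behave. Of 1027 such genes 972 were in the dimmest 40%, and 173 fell and 6 rose, with a median of -0.11. After median centring 488 fell and 3 rose, and after quantile normalization 133 fell and 12 rose. Without ESC array 3 there were 91 falls and 13 rises, with a median of -0.07, and without CHIR/XAV array 3 there were 126 falls and 10 rises. Falls numbered 206 without ESC array 1 and 116 without CHIR/XAV array 2. The vomeronasal receptor genes were alike, with 27 falls and 2 rises among 167 and the same median of -0.11. Leaving out single arrays gave 16 falls (median -0.07, without ESC array 3) to 40 (median -0.15, without ESC array 1) and 0 to 2 rises. Median centring gave 69 falls and quantile normalization 18. Small falls of dim genes thus occur in these values, in numbers that depend on the scaling and on single arrays of both groups. Lists with many dim members hold such genes.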

How the data were processed

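Total RNA was hybridised to Affymetrix Mouse Gene 1.0 ST arrays, 3 for each of 3 cultures. The authors' deposited values are log2 signals, which per the submitters' processing notes were made by RMA in Partek. Neither versions nor detection calls are given in the sources used here, and dim values may be background. Of 35399 probe sets 21789 had 1 gene symbol in the platform annotation, 1621 several and 11989 none. The first kind named 19938 genes, of which 19919 matched RefSeq. Where a gene had several probe sets (999 genes), the brightest on average stood for it.

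A linear model over all 9 arrays was fitted in limma 3.58.1 (R 4.3.3) with moderated variances, and p-values were adjusted over all 19938 genes (Benjamini-Hochberg, threshold 0.05). "Called" means past that threshold and 2-fold a log2 change of at least 1. The scripts were tested on simulated data. "The dimmest 40%" are the genes with the lowest mean over all arrays. The members and the 55 gene lists and 20 families (1182 of 1280 listed genes measured) were chosen with earlier results of these data known. Named genes were taken from the 25 largest changes each way, up to 6 of the largest called members of a list, list members not called, the 3 largest rises and falls of a family, the Mir302 and Mir367 genes with 6 other microRNA genes, and 6 each way among genes 2-fold from both other groups. Genes outside this rule are said to be so. The Mir290 to Mir295 genes were not analysed here. Alternatives were other probe set rules, rescalings, filters, variance models, a replicate block, a test against 1.5-fold and leaving out each array.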

Additional observations from a re-analysis of the deposited data

Results flagged for a closer look

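Probe sets that could not be tied to a gene held signals as large as those described above. Of the 11989 probe sets with no gene symbol, 161 had a mean 2-fold or more above the ESC mean in CHIR/XAV EpiSCs and 249 had one that far below it, and of the 1621 with several symbols 59 were above and 122 below by that much. Probe set 10428619 was at 4.75 ± 0.08 (SD, n = 3) in ESCs and at 11.76 ± 0.01 (SD, n = 3) in CHIR/XAV EpiSCs, a difference of 7.01, which is above every rise of a gene named in the text. Its mean in FGF2/activin EpiSCs was 9.67. Probe set 10500796 was higher by 5.53, at 4.13 on average in FGF2/activin EpiSCs, and CHIR/XAV array 3 had its highest value (10.37). Among the lower ones, 10474520 differed by -5.57 and 10420780 by -4.71. These 4 were chosen for the size of their change.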

How the results depend on the processing

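Against a change of 1.5-fold, limma's treat test called 2241 genes, 1357 higher and 884 lower, in place of 9320, since 62.1% of the calls were under 1.5-fold. Centring each array on its median gave 7426 lower calls in place of 4404. The other settings kept the counts of calls within 1.5 times, from 7918 of 11963 genes without the dimmest 40% to 9584 after quantile normalization, with 8492 of 18435 when chromosomes 15, X and Y were left out, a choice made after seeing the data. Leaving out each array in turn gave 8438 to 9029 calls against ESCs and 6923 to 8174 against FGF2/activin EpiSCs. Of the 415 named genes 316 kept their call under every planned setting run on them (382 were left once the dimmest 40% were removed) and none changed direction. The other 99 lost it against 1.5-fold, 7 of them also after median centring, 3 after quantile normalization and 3 with the replicate block. Leaving out a single array lost from 3 of them (CHIR/XAV array 1) to 8 (CHIR/XAV array 3).

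The groups share replicate numbers. Deviations of same-numbered ESC and CHIR/XAV arrays correlated at 0.05, -0.05 and -0.01. For same-numbered ESC and FGF2/activin arrays the values were -0.03, 0.07 and 0.24, and for different numbers -0.23 to 0.18. With 3 arrays a group these values cannot settle whether the numbers mark pairs. With the replicate number as a block 9325 genes were called, 9110 of them shared with the fit without it, and 8246 against FGF2/activin EpiSCs.

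Strain, cell type, partner compound and the expression of sex-linked genes differ together between these EpiSCs and ESCs and cannot be told apart. With 3 arrays a group and no detection calls, changes between dim values are bounds at best.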
